A study of Mus musculus with 44 samples.

Results

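Fatty acid oxidation and peroxisome proliferator-activated receptor (PPAR) target genes were followed in mouse kidney over the day, in mice with and without the clock gene Bmal1 (Arntl). The set held 42 genes listed by name for their known roles, with earlier results of these data known. They were taken out of 24733 genes with any value and 12874 genes with a mean level of at least 1 TPM (a relative, length-scaled transcript abundance), and all 42 passed that limit. Of them, 18 code for mitochondrial enzymes and carriers, 11 for peroxisomal ones and 2 for enzymes of both places; 2 are regulators in the nucleus and 9 are other PPAR targets. The samples were 24 libraries of polyadenylated kidney RNA: 12 from wild-type mice (WT) and 12 from Bmal -/- mice (KO). All mice were of the 129SV strain, 8 to 12 weeks old, and all were fed only at night. Each genotype had 2 libraries, A and B, at each of 6 zeitgeber times (ZT, hours after lights on): ZT0, ZT4, ZT8, ZT12, ZT16 and ZT20. The sources used here do not say in which tissues or exons Bmal1 was deleted, give no sex and do not say whether a library came from 1 mouse or several, so p-values measure the spread between these libraries.

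In mitochondrial β-oxidation a long-chain fatty acid is first bound to coenzyme A, passed across the inner membrane on carnitine, and then shortened in a repeating cycle of dehydrogenation, hydration, a further dehydrogenation and thiolysis. Peroxisomes run a parallel cycle on very long, branched and dicarboxylic acids, in which the opening step is done by an oxidase that makes hydrogen peroxide, and they hand shortened products back to mitochondria as carnitine esters. PPARα, the product of Ppara, is a fatty-acid-binding nuclear receptor that acts with RXR partners and switches on genes of both cycles during fasting. The kidney's proximal tubule is one of the tissues richest in both organelles and draws much of its energy from fatty acids.

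TPM is scaled for transcript length and has the same sum in every library, so it carries no sequencing depth, and levels of different genes can be set side by side. Arntl ran from 0.295 to 12.9 TPM in WT over the day and stayed at 4.19 to 6.28 TPM in KO. As which exons are missing is not given, that level is no check of the labels. The library labelled KO ZT4 A stood apart from the other KO libraries. Its Nr1d1 value, a direct clock output, was 23.8 TPM, inside the WT ZT4 pair of 22 and 33 TPM and far above the KO ZT4 B value of 2.75 TPM. Of the 42 genes, 41 lay within the range of the 12 WT libraries in KO ZT4 A, against 8 to 18 in each of the other 11 KO libraries. Of all genes tested, 90.5% lay within that range in KO ZT4 A and 41.4% to 62.7% in each of the other 11. The library KO ZT12 A had 0.0990 TPM of the Y-linked gene Ddx3y, which was at 11.7 TPM or more in the other 23 libraries. Counts are therefore also given without each of these. The KO libraries varied more between A and B: the median absolute A-to-B difference over the 42 genes was 0.147 to 0.333 log2 units in the KO groups and 0.0661 to 0.185 in the WT groups.

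**Figure D1:**
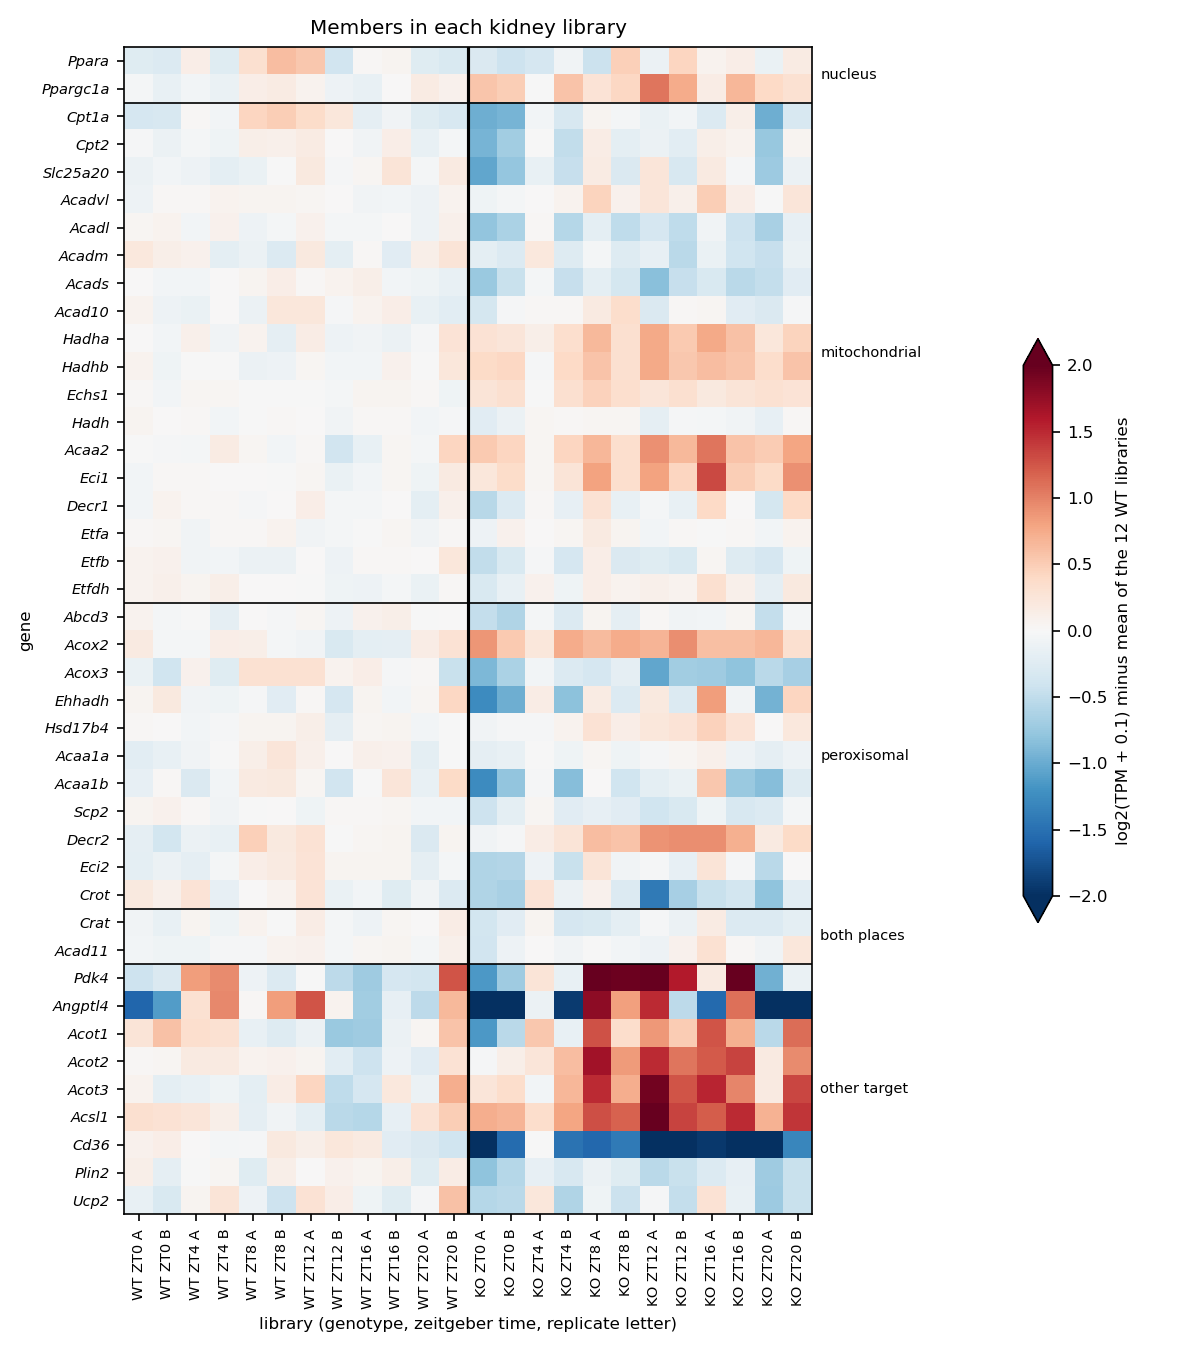
Each cell shows 1 gene in 1 library as log2(TPM + 0.1) minus the mean of the 12 WT libraries, with rows grouped by the place of the protein and columns by genotype and zeitgeber time; colours saturate at 2 log2 units. KO ZT4 A looks like the WT columns, Cd36 is low in the other 11 KO libraries, and Hadha, Hadhb, Acaa2 and Eci1 are high in most of them.

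Among the 42 genes, KO kidneys had less RNA for Cpt1a, Cpt2 and Slc25a20 of the carnitine shuttle and for several acyl-CoA dehydrogenases. They had more for the later steps of the mitochondrial cycle, and the largest shifts were in Cd36 (lower) and Acsl1 (higher). Over the whole day, 13 of the 42 genes were higher and 17 lower in KO (limma, time as a factor, Benjamini-Hochberg adjusted p under 0.05). Of all genes tested, 50.9% were called higher and 10.0% lower. The median change over the 42 genes was -0.051 on the log2 scale, beside 0.15 over all genes. The upward shift of all genes depends on the scaling. The share of TPM taken by the mitochondrial genome was 38.0% to 42.5% in WT and 32.3% to 40.3% in KO, and among nuclear transcripts rescaled to equal sums, 11 of the 42 were higher and 19 lower, beside 35.6% and 13.0% of all genes. After median-of-ratios scaling the median of all genes was -0.002, 21.5% of genes were higher and 22.6% lower, and the 42 genes split into 11 higher and 23 lower. Without KO ZT4 A the split was 13 higher and 17 lower (52.7% and 10.3% of all genes), and without KO ZT12 A it was 12 and 18 (48.8% and 10.1%). With all 24 libraries the WT and KO ranges overlapped for each of the 42 genes, while 1.67% of all genes had ranges apart. Without KO ZT4 A the ranges were apart for 7 genes (Acads, Hadhb, Echs1, Eci1, Acox2, Acsl1 and Cd36), beside 10.1% of all genes. Changes given from here on are differences on the log2(TPM + 0.1) scale, KO minus WT, with the standard error (SE) of the fit, so a value under 0 is lower in KO.

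**Figure D2:**
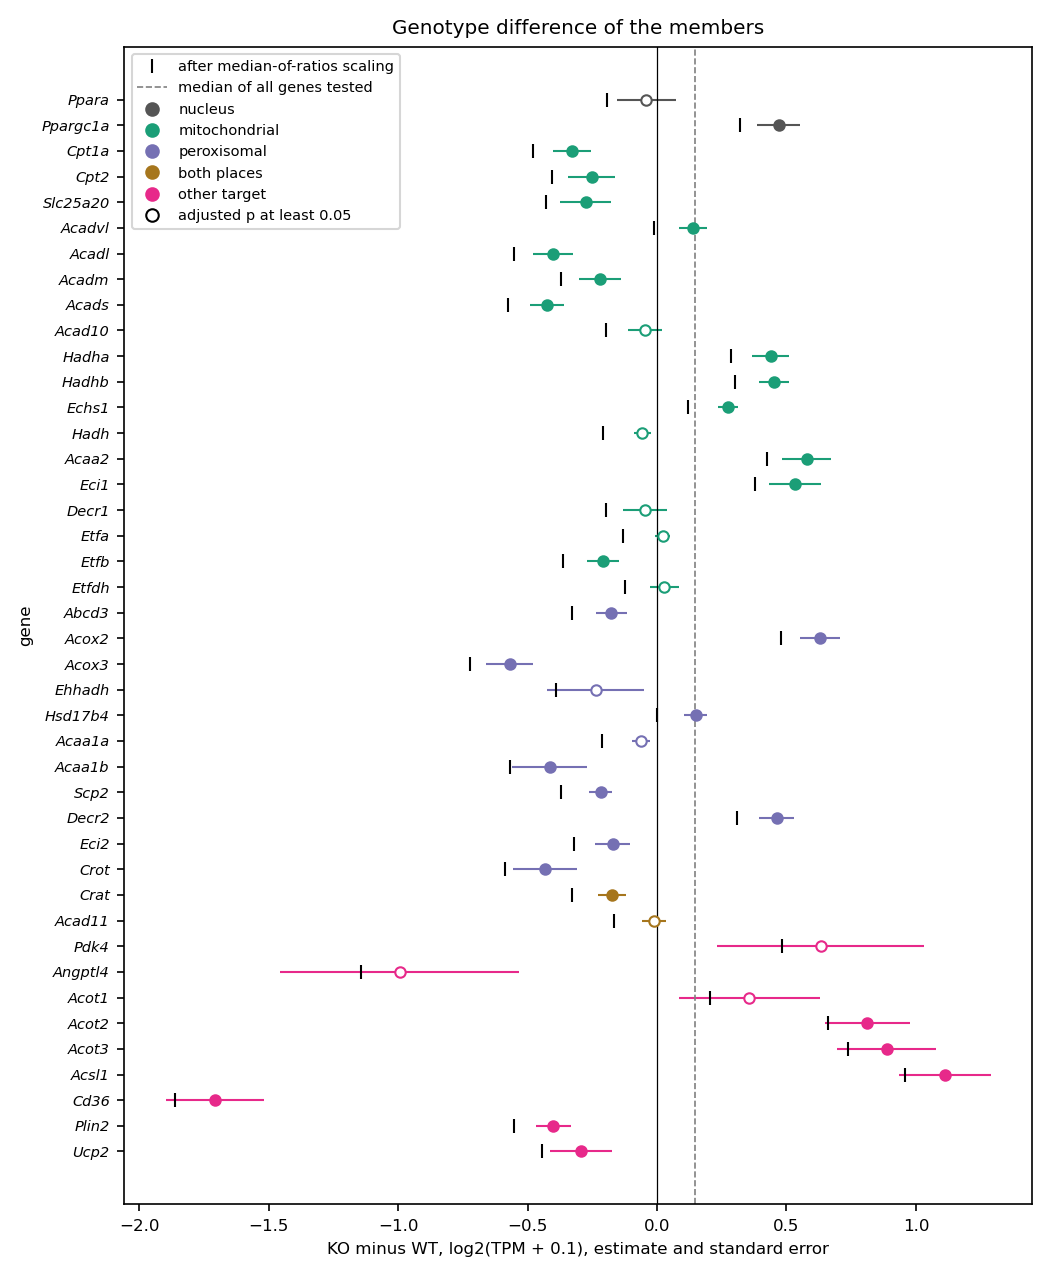
Circles give the KO minus WT difference of each gene in log2(TPM + 0.1) with its standard error from limma (24 libraries), filled where the adjusted p was under 0.05; vertical ticks give the same after median-of-ratios scaling and the dashed line the median of all genes. The carnitine carriers and most acyl-CoA dehydrogenases lie left of 0 and Hadha, Hadhb, Echs1, Acaa2 and Eci1 lie right of 0 under both scalings, whereas Acadvl and Hsd17b4 move to about 0 after rescaling.

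The receptor itself did not pass the genotype test. Ppara stood at 12.8 and 12.4 TPM at ZT0, 16.7 and 12.8 at ZT4, 19 and 23.3 at ZT8, 21.9 and 11.6 at ZT12, 15.4 and 15.7 at ZT16 and 12.8 and 12.2 at ZT20 in WT. In KO it stood at 12.3 and 11.4 TPM at ZT0, 12 and 14.4 at ZT4, 11.2 and 21.1 at ZT8, 14 and 20.4 at ZT12, 15.9 and 16.7 at ZT16 and 13.7 and 17 at ZT20. The ranges over the day overlapped, A and B differed most at WT ZT12 and KO ZT8, and the KO minus WT difference was -0.042 (SE 0.11, adjusted p 0.767). Its fitted 24-hour wave also missed the threshold in both genotypes (adjusted p 0.113 in WT and 0.342 in KO), but without WT ZT12 B it passed in WT. Ppargc1a, a coactivator that drives mitochondrial gene expression, was higher in KO, at 0.47 (SE 0.083, adjusted p 9.13e-05). It ranged over 9.64 to 12.1 TPM in WT and 10.7 to 22.6 TPM in KO, with its lowest KO value in KO ZT4 A.

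All 3 genes of the mitochondrial carnitine shuttle were lower in KO, beside 10.0% of all genes. Cpt1a makes the acylcarnitine and is the regulated entry step, Slc25a20 carries it across the inner membrane, and Cpt2 turns it back into acyl-CoA. Cpt1a differed by -0.33 (SE 0.075, adjusted p 0.000925). Cpt2 differed by -0.25 (SE 0.090, adjusted p 0.0205) and Slc25a20 by -0.28 (SE 0.099, adjusted p 0.0216). For each of them the sign was the same at 5 of 6 times. The gap was widest at ZT0, where Cpt1a was 72.5 and 73.2 TPM in WT against 46.7 and 47.9 TPM in KO, and Slc25a20 was 26.8 and 27.9 against 14.1 and 17.1 TPM.

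The acyl-CoA dehydrogenases, which open each mitochondrial turn and differ in the chain length they take, were split. The long-chain enzyme Acadl was lower, at -0.40 (SE 0.076), as was the short-chain enzyme Acads, at -0.42 (SE 0.065). The medium-chain enzyme Acadm was lower, at -0.22 (SE 0.080, limma adjusted p 0.0226), but its sign held at 4 of 6 times. Acads was 98.4 and 93.5 TPM at ZT0, 93.9 and 98 at ZT4, 101 and 107 at ZT8, 99 and 102 at ZT12, 106 and 93.3 at ZT16 and 91.4 and 87.5 at ZT20 in WT. In KO it was 58.3 and 71.4 TPM at ZT0, 94.9 and 70.8 at ZT4, 84.9 and 76.4 at ZT8, 54.4 and 70.4 at ZT12, 78.8 and 67.2 at ZT16 and 70.1 and 82.9 at ZT20. Only KO ZT4 A, at 94.9 TPM, reached the WT range of 87.5 to 107 TPM; the other 11 KO libraries lay below it. The very-long-chain enzyme Acadvl went the other way, at 0.14 (SE 0.054, adjusted p 0.0297), but its sign held at 4 of 6 times and its difference was -0.012 after median-of-ratios scaling; with single libraries left out the call was lost in 7 of 24 fits. Acad10 and Acad11, members of the family that take branched or 4-hydroxy acids, did not pass, at -0.046 (SE 0.065) and -0.012 (SE 0.046), and were called lower after median-of-ratios scaling (adjusted p 0.0362 and 0.0152).

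Of the 5 genes for the later steps of the mitochondrial cycle, 4 were higher in KO, beside 50.9% of all genes. Hadha and Hadhb code for the subunits of the trifunctional protein, which does the last 3 steps on long chains; they differed by 0.44 (SE 0.070, adjusted p 3.29e-05) and 0.45 (SE 0.058, adjusted p 3.51e-06). Hadhb was 144 to 184 TPM in WT and 196 to 264 TPM in the KO libraries other than KO ZT4 A, with no overlap. Echs1, the short-chain hydratase, was higher, at 0.27 (SE 0.038), and Acaa2, the medium-chain thiolase, at 0.58 (SE 0.093). Both had the same sign at 6 of 6 times. Hadh, the short-chain hydroxyacyl-CoA dehydrogenase, did not pass (-0.056, SE 0.032). Of the auxiliary enzymes for unsaturated acids, the isomerase Eci1 was higher, at 0.53 (SE 0.10) and the reductase Decr1 did not pass (-0.047, SE 0.085). Etfa, Etfb and Etfdh pass electrons from the dehydrogenases to ubiquinone. Etfb was lower, at -0.21 (SE 0.063), while Etfa and Etfdh, at 0.022 (SE 0.028) and 0.029 (SE 0.056), did not pass. After median-of-ratios scaling Hadha, Hadhb, Acaa2, Eci1 and Echs1 remained called higher, while Hadh at -0.21 and Etfa at -0.13 were called lower (adjusted p 0.000531 and 0.00649).

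Hadha and Hadhb, which differed by nearly the same amount, lie head to head on chromosome 5, Hadha on the minus strand and Hadhb on the plus strand. The bases between their annotated starts, shown because they are all that separates these genes, run from the first base past Hadha to the last base before Hadhb (GRCm38 genome from RefSeq, gene ends from GENCODE M21, chr5:30155163-30155247, plus strand, 85 bases, 69.4% G or C).
Hadha to Hadhb: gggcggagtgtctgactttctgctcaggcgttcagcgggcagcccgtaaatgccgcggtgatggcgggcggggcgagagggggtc

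The peroxisomal genes showed the same mixture. Of 11, 3 were higher and 6 lower, and 2 did not pass, beside 50.9% and 10.0% of all genes. After median-of-ratios scaling 2 were higher and 7 lower, beside 21.5% and 22.6% of all genes. With nuclear transcripts only there were again 2 higher and 7 lower, beside 35.6% and 13.0%. Abcd3, which brings acyl-CoA into the peroxisome, was lower, at -0.18 (SE 0.061). The oxidases moved apart. Acox2, the branched-chain and bile-acid oxidase, was higher, at 0.63 (SE 0.078, adjusted p 2.60e-06), and its KO libraries other than KO ZT4 A (64.3 to 97.5 TPM) lay above every WT library (41.3 to 62.6 TPM). Acox3, a further branched-chain oxidase, was lower, at -0.57 (SE 0.091, adjusted p 3.29e-05). It stood at 76.7 and 63.5 TPM at ZT0, 89.2 and 71.2 at ZT4, 104 and 103 at ZT8, 104 and 88.4 at ZT12, 92.4 and 83 at ZT16 and 85.3 and 61.7 at ZT20 in WT. In KO it stood at 45.2 and 54 TPM at ZT0, 80.6 and 69.6 at ZT4, 66.3 and 74.1 at ZT8, 40.8 and 52.1 at ZT12, 51 and 48.2 at ZT16 and 57.9 and 52.9 at ZT20. All 8 KO libraries of ZT0, ZT12, ZT16 and ZT20 were below every WT library, and the 4 of ZT4 and ZT8 lay inside the WT range.

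In the peroxisomal cycle Ehhadh and Hsd17b4 are the bifunctional hydratase-dehydrogenases for straight and branched chains, and Acaa1a, Acaa1b and Scp2 hold the thiolase step. Ehhadh did not pass, at -0.24 (SE 0.19, adjusted p 0.282), and its KO libraries were the most scattered of the peroxisomal genes. They were 87.7 and 107 TPM at ZT0, 234 and 119 at ZT4, 236 and 174 at ZT8, 242 and 175 at ZT12, 376 and 202 at ZT16 and 109 and 285 at ZT20. The 12 WT libraries held 167 to 280.2 TPM. KO values thus lay below the WT range at ZT0 in both replicates, and at ZT20 replicate A was below it and B above it. Hsd17b4 was higher, at 0.15 (SE 0.044, adjusted p 0.00639), but its difference was -0.0016 after median-of-ratios scaling. Acaa1b was lower, at -0.41 (SE 0.15) and Scp2 at -0.22 (SE 0.044), and Acaa1a did not pass (-0.062, SE 0.033), but was called lower after median-of-ratios scaling, at -0.21 (adjusted p 0.000174). Acaa1a and Acaa1b are near-identical copies, so reads may be split between them; their summed level differed by -0.29 (adjusted p 0.0185). Scp2 also makes a sterol carrier protein from the same gene and was the most abundant of the 42 genes, at 611 to 687 TPM in WT and 487 to 663 TPM in KO. Decr2, the peroxisomal dienoyl-CoA reductase, was higher, at 0.46 (SE 0.068) and the isomerase Eci2 lower, at -0.17 (SE 0.068). The Eci2 call was lost in 12 of 24 fits with single libraries left out, and with no filter (adjusted p 0.0582). Crot, which sends medium-chain products out as carnitine esters, was lower, at -0.43 (SE 0.12). Crat, a carnitine acetyltransferase of both organelles, was lower, at -0.17 (SE 0.054).

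Set side by side, the mitochondrial genes had a median difference of -0.046 and the peroxisomal genes of -0.18, with 0.15 over all genes; after median-of-ratios scaling the medians were -0.20 and -0.33. No test was made on these medians, since the genes were chosen with results known. The ratio of summed peroxisomal to summed mitochondrial TPM within a library does not depend on the scaling. It was 0.693 ± 0.0237 (SD, n = 12) in WT and 0.615 ± 0.0438 (SD, n = 12) in KO. Of the 12 KO libraries, 10 were below the lowest WT library, and the others were KO ZT4 A at 0.699 and KO ZT16 A at 0.677. The mitochondrial sum was 2324 to 2666 TPM in WT and 2172 to 2866 TPM in KO. The peroxisomal sum was 1598 to 1773 and 1198 to 1941 TPM. Scp2 alone weighs heavily in it. With Scp2 left out, the ratio was 0.430 ± 0.0203 (SD, n = 12) in WT and 0.390 ± 0.0435 (SD, n = 12) in KO, with 7 KO libraries below the WT range.

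The paired enzymes that do the same step in each organelle did not all shift the same way. The log2 ratio of Eci2 to Eci1 was 0.86 ± 0.17 (SD, n = 12) in WT and 0.15 ± 0.27 (SD, n = 12) in KO, and 11 of 12 KO libraries were below every WT library. For the thiolases, Acaa1a plus Acaa1b against Acaa2, it was 0.90 ± 0.17 (SD, n = 12) and 0.037 ± 0.34 (SD, n = 12), again with 11 of 12 below. For Ehhadh against Hadha it was 0.97 ± 0.14 (SD, n = 12) and 0.29 ± 0.53 (SD, n = 12), with 9 of 12 below. The reductases went the other way: Decr2 to Decr1 was -0.11 ± 0.23 (SD, n = 12) in WT and 0.40 ± 0.32 (SD, n = 12) in KO, with 6 of 12 KO libraries above every WT library and the other 6 inside their range. In each of these ratios KO ZT4 A lay inside the WT range.

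**Figure D3:**
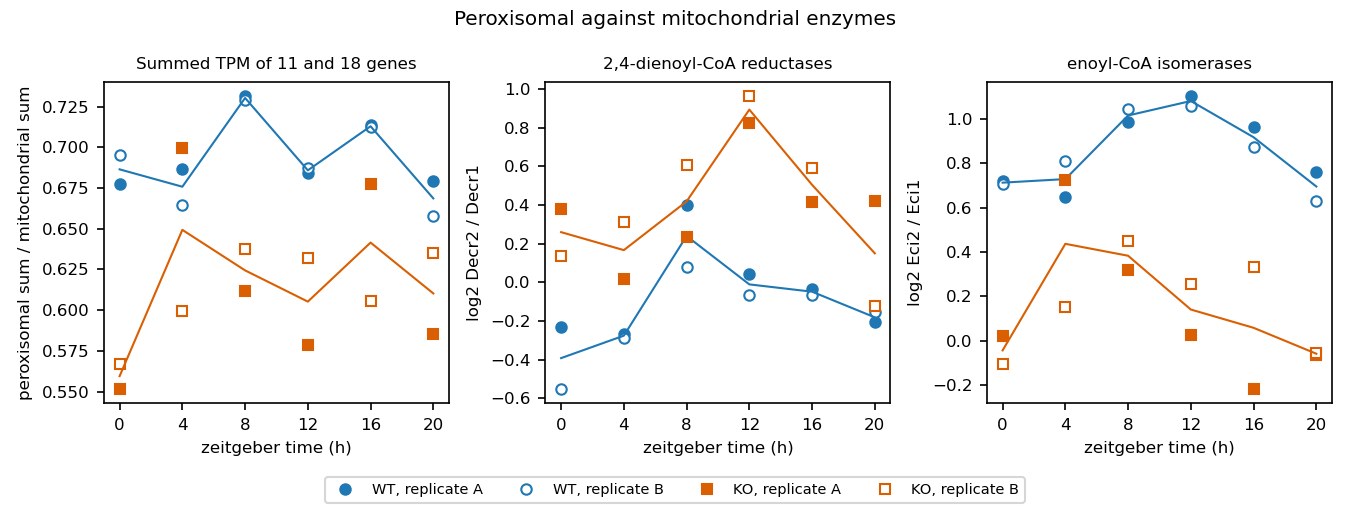
The left panel plots summed TPM of the 11 peroxisomal genes divided by that of the 18 mitochondrial genes against zeitgeber time, and the other panels plot the log2 ratio of the peroxisomal to the mitochondrial enzyme for dienoyl-CoA reduction and enoyl-CoA isomerisation; points are libraries and lines join the means of both replicates. In the left panel 10 of 12 KO libraries sit below every WT library, as do 11 of 12 for the isomerases, whereas for the reductases 6 of 12 sit above.

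The largest differences were among the other PPAR targets. Cd36, a fatty acid uptake receptor at the cell surface, was lower, at -1.71 (SE 0.19, adjusted p 1.21e-06). It was 143 and 148 TPM at ZT0, 135 and 131 at ZT4, 133 and 155 at ZT8, 146 and 158 at ZT12, 153 and 116 at ZT16 and 110.1 and 103 at ZT20 in WT. In KO it was 30.9 and 46.3 TPM at ZT0, 133 and 48.1 at ZT4, 45.3 and 50.4 at ZT8, 19.5 and 28.8 at ZT12, 35.1 and 33.3 at ZT16 and 31.3 and 54.2 at ZT20. The 11 KO libraries other than KO ZT4 A were all below every WT library, and without KO ZT4 A the difference was -1.85. Plin2, the coat protein of lipid droplets, was lower, at -0.40 (SE 0.066) and Ucp2, an inner-membrane carrier, at -0.29 (SE 0.12). The Ucp2 call was lost in 15 of 24 fits with single libraries left out, and with no filter (adjusted p 0.0656). Cd36 is also made by endothelium and macrophages. The 4 endothelial markers read summed to 106 to 136 TPM in WT and 114 to 160 TPM in KO. Of these 4, 2 were called higher in KO, beside 50.9% of all genes. The 4 macrophage markers summed to 27.3 to 52.4 TPM in WT and 18.4 to 33.3 TPM in KO. Of these 4, 2 were called lower in KO, beside 10.0% of all genes. The part of these cells in the result was not tested.

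Acsl1, which activates long-chain fatty acids with coenzyme A, had the largest increase, at 1.11 (SE 0.18, adjusted p 4.23e-05). It was 66 and 64.4 TPM at ZT0, 62.2 and 56.9 at ZT4, 46.5 and 50.1 at ZT8, 46 and 36.1 at ZT12, 35.4 and 47.2 at ZT16 and 64.7 and 74 at ZT20 in WT. In KO it was 86.9 and 85 TPM at ZT0, 67.5 and 91.2 at ZT4, 129 and 119 at ZT8, 230.4 and 135 at ZT12, 123 and 149 at ZT16 and 85.4 and 142 at ZT20. Apart from KO ZT4 A, at 67.5 TPM, every KO library was above every WT library. Acot1, Acot2 and Acot3 code for thioesterases that release free fatty acid from acyl-CoA in the cytosol, the mitochondria and the peroxisome. Acot2 was higher, at 0.81 (SE 0.16, adjusted p 0.000372) and Acot3, at 0.89 (SE 0.19, adjusted p 0.000633). Acot3 was 6.67 and 5.55 TPM at ZT0, 5.69 and 5.97 at ZT4, 5.51 and 7.03 at ZT8, 8.61 and 4.45 at ZT12, 5.04 and 7.35 at ZT16 and 5.87 and 10.6 at ZT20 in WT. In KO it was 7.54 and 8.13 TPM at ZT0, 6.14 and 10.1 at ZT4, 18 and 10.6 at ZT8, 24.5 and 15.4 at ZT12, 18.4 and 12.6 at ZT16 and 7.23 and 16.3 at ZT20. It was thus at most 25 TPM in any library, and its lowest KO value was that of KO ZT4 A. Acot1 did not pass (0.36, SE 0.27). These 3 genes are near copies in a cluster on chromosome 12, and reads may be split between them; their sum differed by 0.54 (adjusted p 0.0478). Pdk4, which shuts down pyruvate oxidation in fasting, and Angptl4, a secreted inhibitor of lipoprotein lipase, did not pass the genotype test (0.63, SE 0.40 and -0.99, SE 0.46), and both changed with time of day in KO; Angptl4 passed it in 4 of 24 fits with single libraries left out and after median-of-ratios scaling (adjusted p 0.0496). Angptl4 ran over 5.26 to 38.4 TPM in WT and 1.14 to 55.7 TPM in KO, with a KO wave of 4.79 log2 units (adjusted p 0.00549).

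A 24-hour wave passed the test in 4 of the 42 genes in WT, beside 13.7% of all genes. They were Cpt1a, Decr2, Acaa1a and Acsl1. Cpt1a in WT was 72.5 and 73.2 TPM at ZT0, 92.9 and 88.7 at ZT4, 123 and 129 at ZT8, 118 and 107 at ZT12, 80.7 and 87.6 at ZT16 and 77.2 and 73.6 at ZT20, highest in the late light phase, with a fitted peak at 9.46 h (SE 0.741) and a peak-to-trough size of 0.80 log2 units (adjusted p 0.00472). Acaa1a in WT was 56.7 and 58.8 TPM at ZT0, 62.2 and 64.9 at ZT4, 70.8 and 77.2 at ZT8, 70.1 and 66.2 at ZT12, 70.5 and 69.9 at ZT16 and 57.5 and 65 at ZT20, with a peak at 11.1 h and a size of 0.31. In KO Acaa1a was 58 and 59.2 TPM at ZT0, 65.3 and 61.5 at ZT4, 67 and 62 at ZT8, 64.5 and 67.5 at ZT12, 70.0 and 61 at ZT16 and 57.9 and 60.8 at ZT20, and its wave there did not pass (adjusted p 0.250). Decr2 in WT was 45.9 and 40.1 TPM at ZT0, 47.5 and 46.6 at ZT4, 72.3 and 59.3 at ZT8, 63.2 and 51.8 at ZT12, 53.1 and 54 at ZT16 and 42.3 and 53.8 at ZT20 (peak 10.8 h, size 0.52). Acsl1 in WT was lowest at ZT12 and ZT16 and had its peak at 0.0651 h; without WT ZT12 B its WT wave did not pass.

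In KO, 12 of the 42 genes passed, beside 3.64% of all genes: Cpt1a, Slc25a20 and Hadha among the mitochondrial genes, Abcd3, Hsd17b4, Decr2 and Eci2 among the peroxisomal genes, and Pdk4, Angptl4, Acot2, Acot3 and Acsl1 among the other targets. Their fitted peaks all lay between 10.2 and 13.5 h, around the time of lights off. The KO peak lay between 10 and 14 h for 28 of the 42 genes (66.7%), against 17.0% of all genes tested. Of the mitochondrial genes 10 of 18, and of the peroxisomal genes 8 of 11, had it there. This window spans the peaks of the 12 genes above, which are counted among the 28. The others counted did not pass the KO test, and some of their peaks were poorly set (Echs1 at 10.6 h, SE 4.58). The count is thus no separate support for a shared peak time. The wave was larger in KO than in WT for 15 of 18 mitochondrial, 8 of 11 peroxisomal and 9 of 9 other target genes, and for 41.5% of all genes. The median size over the 42 genes was 0.213 log2 units in WT and 0.436 in KO, beside 0.248 and 0.215 over all genes. A fitted size is never under 0 and grows with the spread between libraries. For the 42 genes that spread, from A to B, was larger in KO groups (0.147 to 0.333 log2 units) than in WT groups (0.0661 to 0.185). Both genotypes were tested against a shared spread. Fitted on each genotype alone, 9 genes passed in WT and 1 in KO. The part of the spread in the larger KO waves and counts was not tested. Decr2 in KO was 49.5 and 50.9 TPM at ZT0, 57.4 and 62.2 at ZT4, 79.9 and 77 at ZT8, 96.3 and 98.6 at ZT12, 98.5 and 84.9 at ZT16 and 58.8 and 67.6 at ZT20, lowest at ZT0 and highest at ZT12 and ZT16 (size 0.96, adjusted p 0.000324). Cpt1a in KO was 46.7 and 47.9 TPM at ZT0, 88.2 and 73.1 at ZT4, 95.7 and 89.1 at ZT8, 83.3 and 87.9 at ZT12, 75.5 and 99 at ZT16 and 46.5 and 73.6 at ZT20 (adjusted p 0.00934).

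The KO count depended on the fit. Fitted on the 12 KO libraries alone, only Decr2 passed, beside 0.0932% of all genes, and with time as a 6-level factor again only Decr2 did, beside 0.217%. Without KO ZT4 A 14 genes passed (3.74% of all genes), without KO ZT12 A 7 (3.69%), and without KO ZT0 B 6 (2.11%). Fitted on the 12 WT libraries alone, 9 genes passed in WT, beside 22.1% of all genes, and with time as a 6-level factor only Cpt1a did, beside 4.47%.

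**Figure D4:**
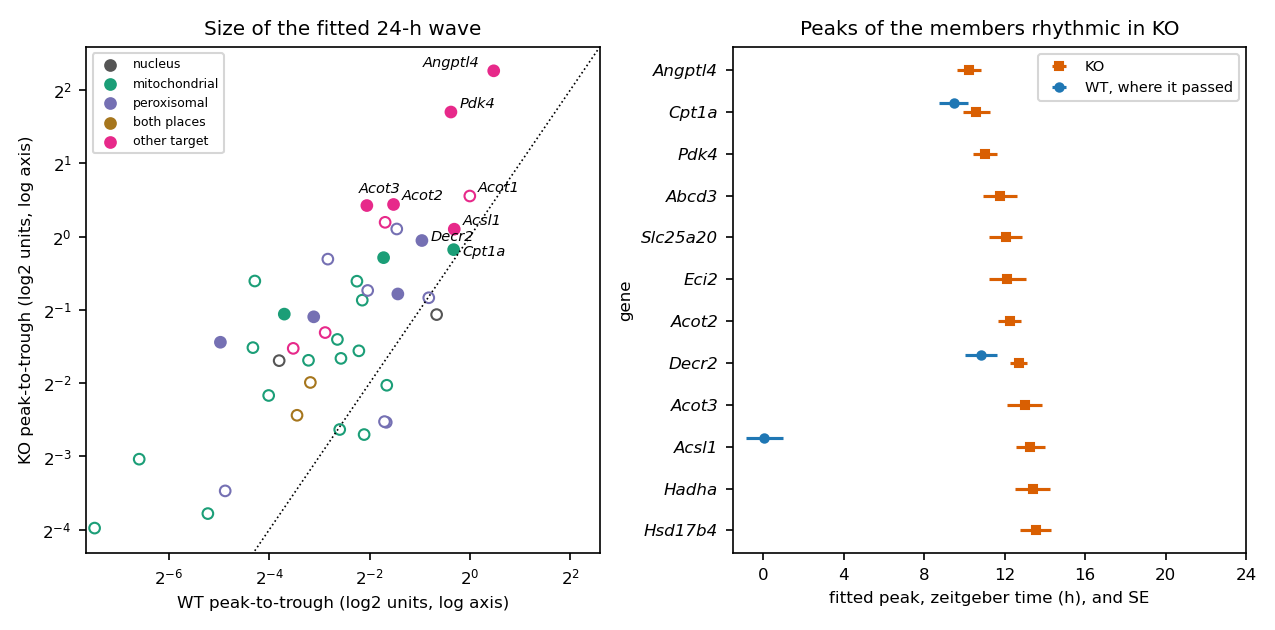
Left, the peak-to-trough size of the fitted 24-hour wave in KO against WT for the 42 genes (both axes logarithmic, in log2 units), filled where the KO wave passed the test; the dotted line marks equal size. Right, fitted peak times with standard errors for the 12 genes that passed in KO, which fall between 10.2 and 13.5 h, with the WT peak where that passed too.

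The wave itself differed between genotypes for 3 genes, Acsl1, Acot2 and Pdk4 (limma F test of the difference, adjusted p 0.00503, 0.0257 and 0.0410), beside 0.629% of all genes. Acsl1 was near its lowest at ZT12 in WT and highest there in KO; its peaks were 0.0651 h (SE 0.938) and 13.3 h (SE 0.705). Acot2 was 11 and 11 TPM at ZT0, 12.2 and 12.2 at ZT4, 11.4 and 11.5 at ZT8, 11.3 and 9.35 at ZT12, 8.04 and 10.0 at ZT16 and 9.20 and 13.2 at ZT20 in WT. In KO it was 10.6 and 11.7 TPM at ZT0, 12.8 and 16.6 at ZT4, 34.7 and 19.5 at ZT8, 30.6 and 22.8 at ZT12, 25.4 and 27.7 at ZT16 and 12.2 and 20.8 at ZT20, with a size of 1.35 against 0.35 log2 units in WT. Pdk4 was 5.44 and 5.93 TPM at ZT0, 13.1 and 14.1 at ZT4, 6.75 and 6.01 at ZT8, 7.29 and 5.03 at ZT12, 4.42 and 5.74 at ZT16 and 5.61 and 17.6 at ZT20 in WT. In KO it was 3.22 and 4.39 TPM at ZT0, 8.76 and 6.60 at ZT4, 33.9 and 28.8 at ZT8, 31.9 and 22 at ZT12, 8.27 and 38.7 at ZT16 and 3.68 and 6.67 at ZT20, low at ZT0 and ZT20 and high at ZT8 and ZT12, while at ZT16 A and B lay far apart. Without KO ZT12 A the adjusted p of Pdk4 was 0.0736, and the other 2 passed, beside 0.506% of all genes. Without both KO ZT4 A and KO ZT12 A only Acsl1 passed (adjusted p 0.00769), beside 0.661%. No mitochondrial or peroxisomal cycle gene passed this test; at an unadjusted p under 0.05 there were 5 of 18 and 5 of 11, beside 13.7% of all genes.

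**Figure D5:**
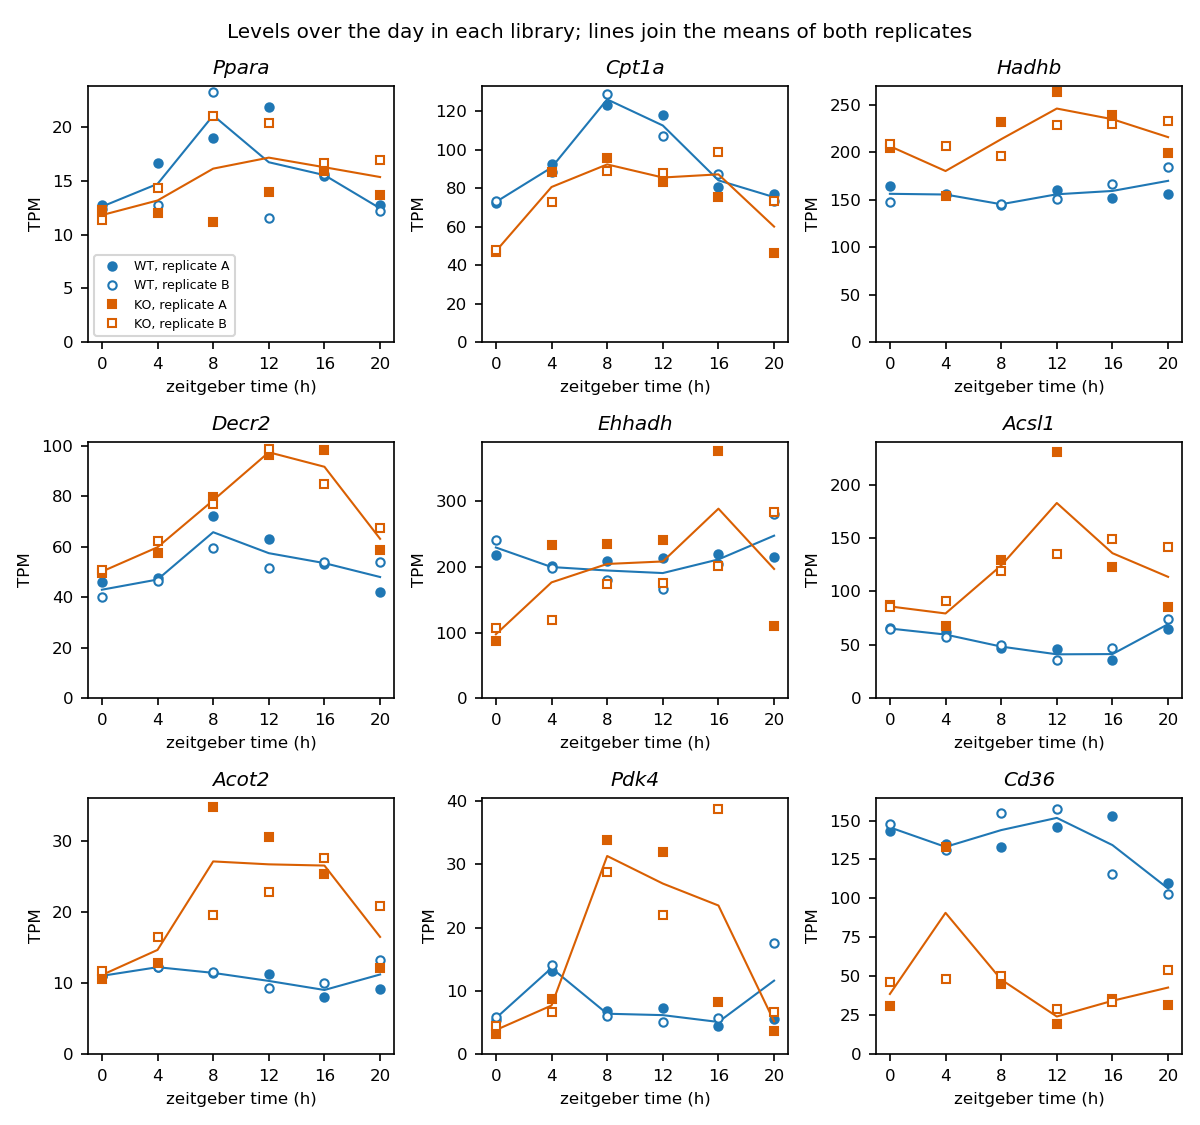
TPM against zeitgeber time for 9 genes, with circles for WT, squares for KO, filled symbols for replicate A and open symbols for replicate B; lines join the means of both. Acsl1, Acot2 and Pdk4 have their highest means between ZT8 and ZT16 in KO and not in WT, Decr2 peaks in both, and the KO ZT4 A point of Cd36 lies with the WT points.

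The bases just upstream of the starts of Acsl1 and Acot2 are shown for the pair whose rhythm differed most (RefSeq promoters, GRCm38.p6, 100 bases ending at the base before the start, both on the plus strand; chr8:46470937-46471036 and chr12:83987761-83987860). Neither promoter holds any of the motifs searched in the next paragraph.
Acsl1: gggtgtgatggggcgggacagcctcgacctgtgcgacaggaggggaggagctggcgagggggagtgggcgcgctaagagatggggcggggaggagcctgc
Acot2: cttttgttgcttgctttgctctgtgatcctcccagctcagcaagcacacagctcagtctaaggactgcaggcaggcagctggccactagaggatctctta

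Promoters of 37 of the 42 genes were matched by symbol to the RefSeq table, as 250 bases before and 50 after each start; Acaa2, Decr1, Hsd17b4, Crat and Angptl4 were not matched. Both strands were searched for 5 motifs. The nuclear receptor half-site AGGTCA was found in 8 of 37 genes (21.6%; Cpt1a, Acadvl, Acadm, Echs1, Scp2, Acot3, Cd36 and Plin2), beside 18.1% of all 27025 genes in the table. The DR1 element, 2 half-sites in a row with any 1 base between the copies, which PPAR and RXR bind, was found in 0 of 37, beside 0.048%. Only exact copies near the start were searched. With so rare an exact motif, a count of 0 in 37 genes cannot show that PPAR sites are missing. The clock's E-box CACGTG was found in Plin2 alone, across its start, beside 8.09% of all genes. The D-box TTANGTAA and the TATA box TATAAA were found in 0 of 37, beside 2.72% and 15.7%. The 3 half-sites that lie upstream of the whole annotated gene are shown with up to 30 bases on each side, the half-site in capitals (GRCm38.p6, all on the minus strand and written 5′ to 3′ along the gene; TGACCT is the half-site on the opposite strand). Acadvl is at chr11:70015480-70015545, Acadm at chr3:153944857-153944893 and Plin2 at chr4:86670242-86670307.
Acadvl: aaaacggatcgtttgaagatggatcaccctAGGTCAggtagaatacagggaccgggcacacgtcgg
Acadm: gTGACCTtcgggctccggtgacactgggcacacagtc
Plin2: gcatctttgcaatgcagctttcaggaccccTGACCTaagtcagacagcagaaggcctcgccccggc

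Single times, with 2 libraries of each genotype, were also tested, and these counts rest on single libraries. At ZT0, 3 genes were higher and 11 lower in KO, beside 10.7% and 2.75% of all genes. The lower ones were Cpt1a, Cpt2, Slc25a20, Acadl, Acads and Etfb of the mitochondrion, Abcd3, Scp2 and Crot of the peroxisome, Cd36 and Plin2. These 14 calls at ZT0 fell to 0 without WT ZT0 A or without KO ZT0 A, to 1 without WT ZT0 B and to 7 without KO ZT0 B. At ZT8, 7 were higher and 2 lower (11.1% and 3.44% of all genes), and the 9 fell to 0 without KO ZT8 A and to 1 without WT ZT8 A or B. At ZT12, 13 were higher and 6 lower (31.9% and 6.24%), and at ZT16, 12 were higher and 3 lower (17.0% and 4.47%). Without WT ZT12 B or KO ZT12 A the 19 at ZT12 became 11, and the 15 at ZT16 became 5 without WT ZT16 A and 9 or 10 without KO ZT16 A or WT ZT16 B. Pdk4 was higher at ZT8, ZT12 and ZT16, by 2.27, 2.11 and 1.81. At ZT4, 0 of the 42 genes passed (limma, 0.0% of all genes in each direction), with 3 at an unadjusted p under 0.05 (12.7% of all genes); with KO ZT4 A left out, Ppargc1a, Echs1 and Acox2 were higher and Cd36 lower at ZT4 (10.7% and 0.909% of all genes). At ZT20, 0 of the 42 passed (2.39% and 1.33% of all genes), with 17 at an unadjusted p under 0.05 (20.9% of all genes). Without KO ZT4 A or KO ZT4 B, 5 of the 42 passed at ZT20. Except at ZT4, the counts with a library left out have no share of all genes beside them. They therefore cannot be read as particular to the 42 genes.

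Among 36 further genes of the pathway with a mean of at least 1 TPM, 13 were higher and 11 lower in KO, beside 50.9% and 10.0% of all genes. Among the largest were Cyp4a12a (-5.16, SE 0.53), Cyp4a14 (4.22, SE 0.55), Hacl1 (1.69, SE 0.19), Fabp1 (1.38, SE 0.39) and Lpl (-1.10, SE 0.14). These 5 passed the test. Fabp1 was near the floor, at a mean of 0.909 TPM in WT and 3.23 TPM in KO. Its highest values were 10.0 TPM in KO ZT12 A and 8.73 TPM in KO ZT16 A. Cyp4a14, a PPARα target that hydroxylates fatty acids, rose, and Lpl, which frees fatty acids from lipoproteins, fell. Of 12 PPAR partners and coregulators, 2 were higher and 2 lower, beside the same shares. Ppard, a PPAR found in most tissues, was higher (1.84, SE 0.25). In WT it had 41.1 and 37 TPM at ZT0 and 4.94 and 4.51 TPM at ZT12, against 48.7 and 34.4 TPM at ZT12 in KO (rhythm difference, limma adjusted p 0.00545). The other called coregulators were Nrip1 (0.37, SE 0.058), Rxra (-0.18, SE 0.042) and Lpin1 (-0.45, SE 0.10).

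Kidney markers were present as labelled, and several moved with genotype. The 9 proximal tubule markers summed to 33370 to 43504 TPM in WT and 12668 to 38596 TPM in KO, most of it from Kap, with 4 lower and 2 higher; KO ZT4 A had the highest KO sum. Slc7a13, a male-high transporter of the late proximal tubule, was 263 to 447 TPM in WT and 1.85 to 294 TPM in KO, and lowest in KO ZT12 A. By contrast Slc34a1 was 1307 to 1596 TPM in WT and 1287 to 1803 TPM in KO. All 6 collecting duct, 3 distal convoluted tubule and 3 podocyte markers were higher in KO, as were 2 of 4 endothelial ones, while 0 of 4 stromal markers passed. Of 3 thick ascending limb markers, 2 were higher and 1 was lower. Of all genes 50.9% were higher and 10.0% lower. White adipocyte markers summed to 0.223 to 30.9 TPM in WT and 0.103 to 33.5 TPM in KO. Brown adipocyte markers summed to 0.0908 to 20.2 TPM in WT and 0.111 to 13.1 TPM in KO. Fat markers thus varied widely between libraries of each genotype. By genotype, 0 of 3 white and 0 of 2 brown markers tested passed. Of the 2 brown ones, 1 was higher in KO at ZT0 and 2 were lower at ZT12. The part of this spread in the results above was not tested. Adrenal markers summed to at most 1.46 TPM in any library. The part of these shifts in the differences above was not tested, and in whole kidney fewer cells of a type and less RNA per cell cannot be told apart.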

How the data were processed

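Kidney RNA of 12 WT and 12 KO samples was read as the transcript table the authors deposited, in TPM, made with kallisto 0.42.4 per the submitters' processing notes, which name the builds mm10 and GRCm38 without roles. The deposited circular chromosome contact tables were not used. Of 88198 transcripts, 86119 matched GENCODE M21 by identifier without version and were summed per gene; the rest held 1.35% to 2.24% of TPM and were left out. TPM keeps no depth, so depth is unknown and no counting interval is given. A floor of 1 TPM on the mean level left 12874 genes, tested on log2(TPM + 0.1) with limma 3.58.1 in R 4.3.3 (empirical Bayes with trend and robust variances, Benjamini-Hochberg over all genes tested, threshold 0.05), and the method was tested on simulated data. The genotype fit had time as a 6-level factor. Rhythm fits had a cosine and a sine of 24 h in each genotype, tested jointly by genotype and as a difference, with all 24 libraries sharing the spread. Single times were tested as KO minus WT contrasts. Ratios and medians had no test. Genes are given with values in every library by rule: Ppara, the 3 largest changes each way among genes called with 1 sign at 6 of 6 times, and the 3 smallest adjusted p-values per rhythm test. Other genes were named by role, and some genes of the further lists are not reported here. The members and lists were chosen with earlier results of these data known. Letters A and B were not treated as pairing samples. Over 66 pairs of group deviations the correlation between libraries of the same letter ran from -0.323 to 0.338, with 21 over 0.1. That does not exclude that some groups share handling by letter. Alternatives were median-of-ratios scaling, nuclear genes only, pseudocount, filter, replicate block, time as a factor, fits per genotype and leaving out each library; those without KO ZT4 A and KO ZT12 A together were added after seeing the data. Tables and figures used Python 3.11.15.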

Additional observations from a re-analysis of the deposited data

Results flagged for a closer look

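The 24-hour wave of 3 genes differed between WT and KO by the test of the difference itself (limma, adjusted over all genes tested): Acsl1 with an adjusted p of 0.00503, Acot2 with 0.0257 and Pdk4 with 0.041. Fitted sizes for Acsl1 were 0.80 log2 units in WT and 1.07 in KO, with the peaks on opposite sides of the day. Acot2 and Pdk4 had larger waves in KO, at 1.35 and 3.24 log2 units. Over the alternatives the adjusted p of Acsl1 ran from 0.00191 to 0.137 and missed the threshold in 1 of 34. That of Acot2 ran from 0.0084 to 0.264 and missed it in 7 of 34. For Pdk4 it ran from 0.0213 to 0.207 and missed it in 18 of 34, so that call rests on the settings and libraries used. No cause of these differences was tested.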

How the results depend on the processing

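The number of genes called by genotype stayed within 1.5 times of 13 higher and 17 lower under every alternative run; leaving out single libraries gave 12 to 13 and 15 to 18. Genotype calls of Cd36, Acsl1, Acot2, Acot3, Acox3 and Acads held in 35 of 35 alternatives. Ppara, never called, changed sign in 3: its difference was 0.0354 without KO ZT8 A, 0.00467 without WT ZT12 A (lowest with a library left out -0.1028, without WT ZT12 B) and 0.00725 without both KO ZT4 A and KO ZT12 A. The WT rhythm count of 4 was 9 in a fit on WT libraries alone and 1 with time as a factor. The KO count of 12 was 1 with time as a factor, 1 in a fit on KO libraries alone, and 1 in a fit on 10 KO libraries (both doubted libraries out); single libraries left out gave 6 (KO ZT0 B) or 7 (KO ZT12 A) up to 16 (KO ZT20 B). Decr2 passed in KO in 36 of 36 alternatives. The rhythm difference count of 3 was 1 with no filter, 1 without both KO ZT4 A and KO ZT12 A and 0 with time as a factor (9 at an unadjusted p under 0.05, limma); single libraries left out gave 1 (WT ZT4 A, WT ZT4 B, WT ZT12 B or WT ZT16 A) to 4 (KO ZT4 A or KO ZT20 B). The cause of these shifts was not tested. The log2 ratio of peroxisomal to mitochondrial sums, KO minus WT, was -0.18, and -0.19 to -0.16 with single libraries left out; as a mean of log2 values, each gene weighted alike, it was -0.11. Calls at single times numbered 57, and 39 to 72 with single libraries left out, and at ZT0 and ZT8 a single library ended all of them. A replicate block on the letters gave 13 higher, 17 lower, 4 WT, 11 KO and 3 differing rhythms. With 2 libraries a group and no depth in TPM, small changes at single times could not be resolved.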
